A study of Homo sapiens with 4 samples.

Results

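CCL20, the CXC chemokines CXCL1, CXCL2, CXCL3, CXCL5 and CXCL8 (interleukin 8), and the cytokines IL6, LIF, IL1A and IL1B were followed in SUM149 cells treated with Ricolinostat. These 10 genes, of 34755 gene symbols on the array, were taken as every probe whose symbol in the authors' annotation was one of the names, with interleukin 8 listed there as CXCL8, and they were carried by 14 of 58201 probes. The genes were chosen from these data, by their level in untreated cells and their change after 3, 6 and 12 h, so the counts and changes that follow are descriptions of the chosen genes and carry no test.

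SUM149 is an established line of inflammatory breast cancer (IBC) cells, and Ricolinostat (ACY1215) is a small molecule inhibitor of the histone deacetylase HDAC6. Cells of this 1 line were either left untreated or given 2.5 uM of Ricolinostat for 3, 6 or 12 h, and total RNA was hybridised to 4 two-colour Agilent arrays, 1 per time point, with the sample in Cy5 and a common reference in Cy3. No replicate and no vehicle-treated array was analysed here, so no p-value or replicate error can be given. The technical SD quoted below is only the spread, between repeated spots of the same probe, of the change from the untreated array. A change in these bulk samples cannot tell a change in the share of cells that express a gene from a change in RNA per cell.

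Chemokines are small secreted proteins that attract leukocytes along a gradient. CCL20 is the ligand of CCR6 and draws dendritic cells and subsets of lymphocytes, whereas the CXC chemokines studied here share a Glu-Leu-Arg motif, signal through CXCR2 (CXCL8 also through CXCR1) and draw neutrophils. IL-6 and LIF signal through receptors that contain gp130 (IL6ST), and IL-1α and IL-1β bind the IL-1 receptor; many of these genes are transcribed under NF-κB and AP-1, and their mRNAs are often short lived because of AU-rich elements.

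To let the reader see which κB or AP-1 letters each holds, sequences just before the transcription start are shown. These are the sequences of the genes that moved most, and of CXCL1 as the close relative of CXCL3. They are the 250 bases upstream of the first listed start in RefSeq (GRCh38.p14), printed 5′ to 3′ on the strand of the gene. Capitals mark κB letters (GGG, any 2 or any 3 bases, then TTTCC or TTCC respectively, on either strand) or AP-1 letters (TGANTCA).
CCL20 (chr2:227813592-227813841, plus strand): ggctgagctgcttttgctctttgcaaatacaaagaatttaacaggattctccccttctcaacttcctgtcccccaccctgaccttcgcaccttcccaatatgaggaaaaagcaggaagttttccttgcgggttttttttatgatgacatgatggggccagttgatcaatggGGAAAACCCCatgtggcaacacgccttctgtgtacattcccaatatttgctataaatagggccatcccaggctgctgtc
CXCL8 (chr4:73740319-73740568, plus strand): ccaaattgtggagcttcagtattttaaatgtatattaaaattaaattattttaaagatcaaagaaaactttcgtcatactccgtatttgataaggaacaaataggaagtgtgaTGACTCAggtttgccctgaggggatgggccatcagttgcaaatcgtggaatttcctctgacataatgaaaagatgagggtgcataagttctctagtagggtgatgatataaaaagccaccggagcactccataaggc
IL6 (chr7:22726950-22727199, plus strand): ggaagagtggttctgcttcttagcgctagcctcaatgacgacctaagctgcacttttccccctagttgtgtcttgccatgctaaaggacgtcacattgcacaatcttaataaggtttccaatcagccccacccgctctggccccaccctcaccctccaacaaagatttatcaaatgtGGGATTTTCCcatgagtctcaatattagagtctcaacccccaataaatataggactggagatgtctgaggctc
CXCL3 (chr4:74038690-74038939, minus strand): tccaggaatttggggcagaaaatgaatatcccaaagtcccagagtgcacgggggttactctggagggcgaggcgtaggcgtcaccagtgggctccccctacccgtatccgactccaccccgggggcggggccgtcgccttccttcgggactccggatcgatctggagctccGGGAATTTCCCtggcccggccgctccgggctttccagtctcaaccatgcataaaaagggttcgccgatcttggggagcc
CXCL1 (chr4:73869143-73869392, plus strand): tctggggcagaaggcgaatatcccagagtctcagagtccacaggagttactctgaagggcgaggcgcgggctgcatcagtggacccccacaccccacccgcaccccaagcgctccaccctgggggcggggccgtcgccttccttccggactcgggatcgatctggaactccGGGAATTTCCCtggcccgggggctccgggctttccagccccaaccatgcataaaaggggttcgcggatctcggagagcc

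Of the 10 genes, 9 had an upstream sequence in the table, and LIF was not among them. The κB letters with a gap of 2 bases lay upstream of CCL20, CXCL1, CXCL2, CXCL3, CXCL5 and IL6, between 73 and 91 bases before the start, in the opposite orientation in CCL20. These letters occurred in 1.73% of all 27305 upstream sequences of the same length, and the form with a gap of 3, which contains the first form, in 5.61%. The AP-1 letters, found in 6.6% of all upstream sequences, occurred once in CXCL8, 137 bases before the start, and once before the first start of IL1A. Neither set of letters was found upstream of IL1B, and no κB letters upstream of CXCL8 or IL1A. This says only that these exact letters are not in this window. The printed CXCL8 sequence holds tggaatttcc, which differs from the κB letters with a gap of 2 in the first base alone. The upstream sequences of CXCL1 and CXCL3 were 81.4% identical over 258 aligned positions, those of CXCL2 and CXCL3 73.4%, and those of CXCL1 and CXCL2 70.1%. All 3 carry the κB letters 78 or 79 bases before the start. As given below, CXCL3 fell 2.35-fold by 3 h, and CXCL1 and CXCL2 did not reach 2-fold in either direction. Whether the letters bear on these changes was not tested. These matches are descriptions of sequence, and binding of a factor was not measured.

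**Figure D1:**
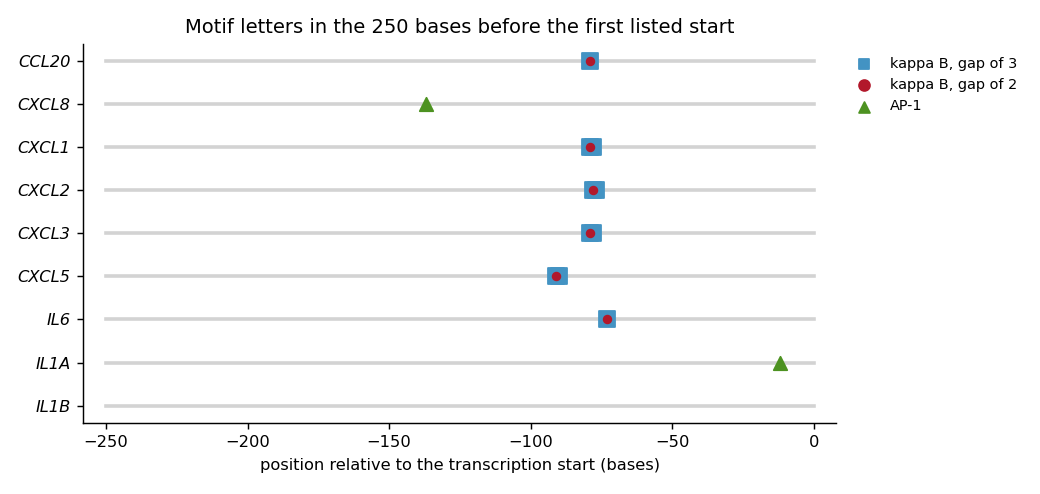
Positions of motif letters (symbols) relative to the transcription start, in bases, in the 250 bases upstream of the first listed start of 9 genes (rows). Squares show κB letters with a gap of 3, circles those with a gap of 2 and triangles AP-1 letters; the κB letters of 6 genes lie between 73 and 91 bases before the start.

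All 10 genes were represented by a probe well above background in both channels on all 4 arrays, and none of their 14 probes lay in a damaged area. Damage took 3.25% of spots on the untreated array, 4.59% at 3 h, 0.248% at 6 h and 0% at 12 h. The median Cy5 signal over all probes ranged from 36 to 40 against a background of 24, with no saturated spot. By the software's flag, all 9 epithelial and basal markers on the array, such as KRT5 and EPCAM, were well above background in Cy5 on all arrays. So were 4 of 5 monocyte, 3 of 6 fibroblast and all 3 endothelial markers, each read from the probe that represents the gene. For KRT6A and KRT14 the spot on the untreated array was a dropped outlier in a damaged area, so no signal is held for them there. The summed Cy5 signal of the monocyte markers lay between 1392 and 1775 on the 4 arrays, and CD163 was not well above background on any array. All samples are labelled as cells of the SUM149 line, so marker signals are given as values only, and the presence of other cells was not tested.

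The reference is labelled as a mixture of the untreated and treated SUM149 RNA, and the level of a gene in such a mixture lies between its levels in the samples. For 6 of the 10 genes (CXCL1, CXCL2, CXCL3, CXCL8, IL1A and IL1B), Cy5 exceeded Cy3 by 2-fold or more on all 4 arrays. In the other direction, 202 genes on the array were at least 8-fold brighter in Cy3 than in Cy5 on all 4 arrays. The fibroblast marker LUM, for example, had Cy3 signals of 2368 to 2633 and Cy5 signals of 26 to 30.5. The fibroblast markers did not all behave in this way. COL3A1 was dim in both channels, with Cy3 signals of 21.5 to 25 and Cy5 signals of 21 to 23. COL1A1 had signal in both, with Cy3 of 1557 to 1673 and Cy5 of 349 to 476. What the reference holds, and the part of dye bias, was not tested. Values are therefore given as log2 changes, the difference of log2(Cy5/Cy3) between a treated array and the untreated array, in which a common reference cancels. The highest Cy3 signal of a representative probe over the 4 arrays was 1.09 to 1.93 times its lowest, with the top of this range at IL1B.

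CCL20 rose at every time point. Its Cy5 signal was 1588 in untreated cells, 3693 at 3 h, 6014 at 6 h and 9763 at 12 h, while its Cy3 signal stayed between 584 and 634. The log2 change was 1.06 at 3 h, 2.13 at 6 h and 2.88 at 12 h, that is 2.09-, 4.39- and 7.38-fold, against a technical SD of 0.157, 0.120 and 0.116. CCL20 was the member with the greatest rise at each time point, and its signal was higher on each array than on the one before.

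CXCL8, the prototype neutrophil chemokine, rose later. Its Cy5 signal was 1654 in untreated cells, 2329 at 3 h, 3563 at 6 h and 6340 at 12 h. The log2 change of 0.21 at 3 h was 1.33 times the technical SD, and it reached 1.21 (2.31-fold) at 6 h and 1.92 (3.78-fold) at 12 h. From 6 to 12 h the log2 ratio of CXCL8 went up by 0.71 and that of CCL20 by 0.75, whereas in the first 3 h only CCL20 passed 2-fold.

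CXCL3, which like CXCL1 and CXCL2 is a GRO chemokine, fell. Its Cy5 signal was 4920 in untreated cells, 2101 at 3 h, 1208 at 6 h and 1670 at 12 h, and the 3 treated arrays were all below the untreated one. The log2 change was -1.23 at 3 h (2.35-fold lower), -1.43 at 6 h (2.69-fold lower) and -0.84 at 12 h (1.79-fold lower), so that it was no longer past 2-fold at 12 h.

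No probe of CXCL1 or CXCL2 reached 2-fold in either direction. The probe that represents CXCL1 had Cy5 signals of 20722, 20303, 20111 and 25658 in untreated cells and at 3, 6 and 12 h, and log2 changes of -0.17, 0.01 and 0.33. Its second probe, with Cy5 signals of 110657, 111627, 108017 and 125533, gave 0.03, 0.55 and 0.95. From the untreated array to 12 h, Cy3 went from 644 to 868.5 on the first probe and from 660.5 to 544 on the second. With Cy5 alone the log2 changes at 12 h were 0.66 and 0.48. Both CXCL1 probes had their highest log2 change at 12 h, and that of the second probe was 8.16 times the technical SD, against 2.86 for the first. The probe that represents CXCL2 had Cy5 signals of 8375, 6799, 6894 and 9021 and log2 changes of -0.16, -0.07 and 0.29, and its second probe changes of -0.50, -0.33 and 0.27. CXCL1, CXCL2 and CXCL3 are close paralogs whose transcripts are similar, and probe sequences were not used here, so how far each probe reads only its own gene was not tested.

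CXCL5, another CXCR2 ligand made by epithelial cells, had Cy5 signals of 601, 864, 692 and 478. Its log2 changes were 0.23, 0.42 and 0.20, all short of 2-fold, and at 12 h the Cy5 signal was below the untreated one while the ratio was above it.

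The CXC genes of this group lie close together on chromosome 4. In the RefSeq gene order from CXCL8 to CXCL2, the protein-coding genes were CXCL8, CXCL6, PF4V1, CXCL1, PF4, PPBP, CXCL5, CXCL3 and CXCL2. At 12 h the log2 change along this row was 1.92 for CXCL8, 0.33 for CXCL1, -0.46 for PF4, 0.20 for CXCL5, -0.84 for CXCL3 and 0.29 for CXCL2, whereas CXCL6, PF4V1 and PPBP were too dim in at least 1 channel to be measured. The genes of the cluster therefore did not move in 1 direction.

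**Figure D2:**
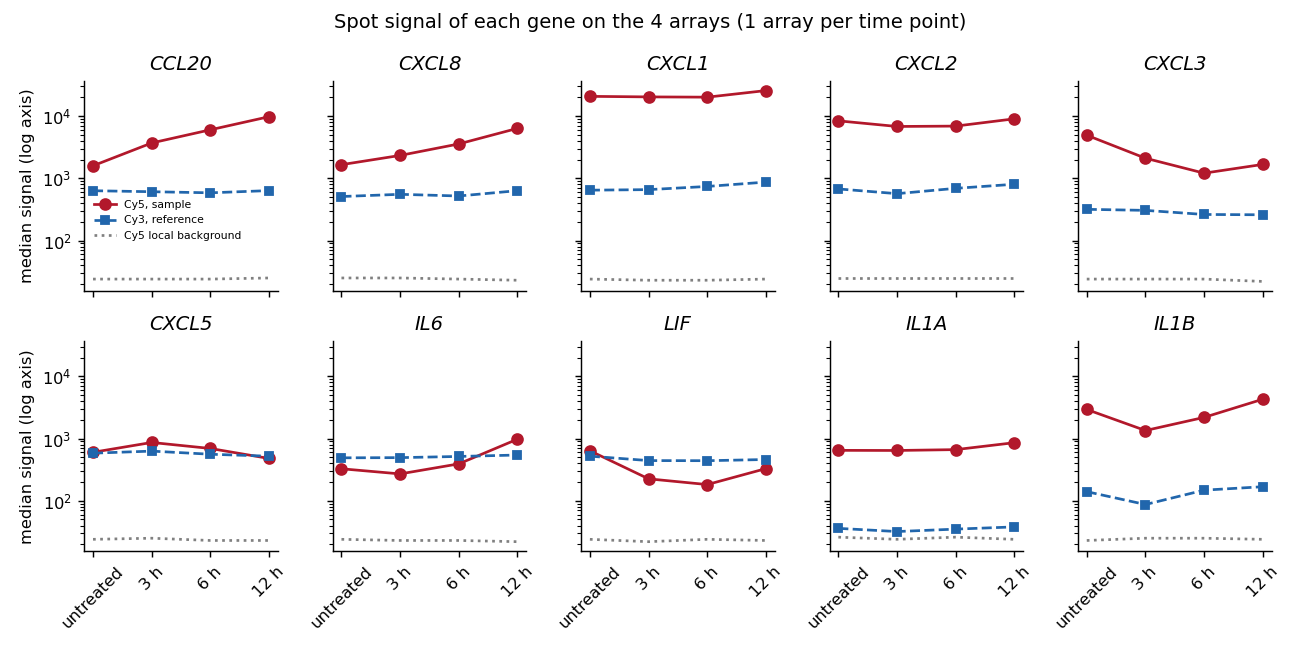
Median spot signal (log axis) of the probe that represents each of the 10 genes on the untreated array and after 3, 6 and 12 h with Ricolinostat, with the Cy5 sample (red circles), the Cy3 reference (blue squares) and the Cy5 local background (dotted). There is 1 array per time point and no error bar; Cy5 of CCL20 goes from 1588 to 9763 while that of CXCL3 goes from 4920 to 1670.

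IL6, the main ligand of the gp130 family in inflammation, rose at 12 h. Its Cy5 signal was 326.5 in untreated cells, 270 at 3 h, 391.5 at 6 h and 976 at 12 h. The log2 change was -0.36 at 3 h, 0.33 at 6 h and 1.59 (3.02-fold) at 12 h, with most of the increase between 6 and 12 h, where the ratio went up by 1.27. These 2 later arrays are those with the least damage. A second IL6 probe, matched to a predicted transcript, was well above background at 6 h alone and gives no change.

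LIF, a gp130 cytokine related to IL6, fell early. Its Cy5 signal was 636 in untreated cells, 225 at 3 h, 182 at 6 h and 328.5 at 12 h. The log2 change was -1.17 at 3 h (2.25-fold lower), -1.13 at 6 h (2.18-fold lower) and -0.35 at 12 h (1.27-fold lower). The second LIF probe was close to background, with Cy5 signals between 29 and 35, and its changes lay between -0.14 and -0.08. The log2 changes of LIF and IL6 had the same sign at 3 h and opposite signs at 6 and 12 h.

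IL1A and IL1B, which encode the IL-1 receptor agonists, did not reach 2-fold. For IL1A the Cy5 signals were 645.5, 642.5, 663 and 857 and the log2 changes 0.05, 0.24 and 0.66, with a Cy3 signal between 32 and 38, so that its ratio rests on a dim reference. For IL1B the Cy5 signals were 2929 in untreated cells, 1344 at 3 h, 2186 at 6 h and 4278 at 12 h, below the untreated level at 3 and 6 h and above it at 12 h. The log2 change of IL1B was -0.55, -0.26 and 0.67. Its Cy3 signal was 87 at 3 h and 140 to 168 on the other arrays, and with Cy5 alone the change at 3 h was -1.22.

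Counted together, 1 member was at least 2-fold higher at 3 h (CCL20), 2 at 6 h (CCL20 and CXCL8) and 3 at 12 h (CCL20, CXCL8 and IL6). Over all genes measured the share at least 2-fold higher was 1.69% at 3 h, 2.81% at 6 h and 2.34% at 12 h. At least 2-fold lower were 2 members at 3 h and 2 at 6 h (CXCL3 and LIF each time), and 0 of 10 at 12 h, against 0.366%, 0.939% and 1.12% of all genes. Since these changes took part in the choice of the genes, nothing is read from the difference to all genes. The median log2 change of the 10 genes was -0.16 at 3 h, 0.12 at 6 h and 0.50 at 12 h, against 0.0075, 0.016 and 0.014 over all genes measured.

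**Figure D3:**
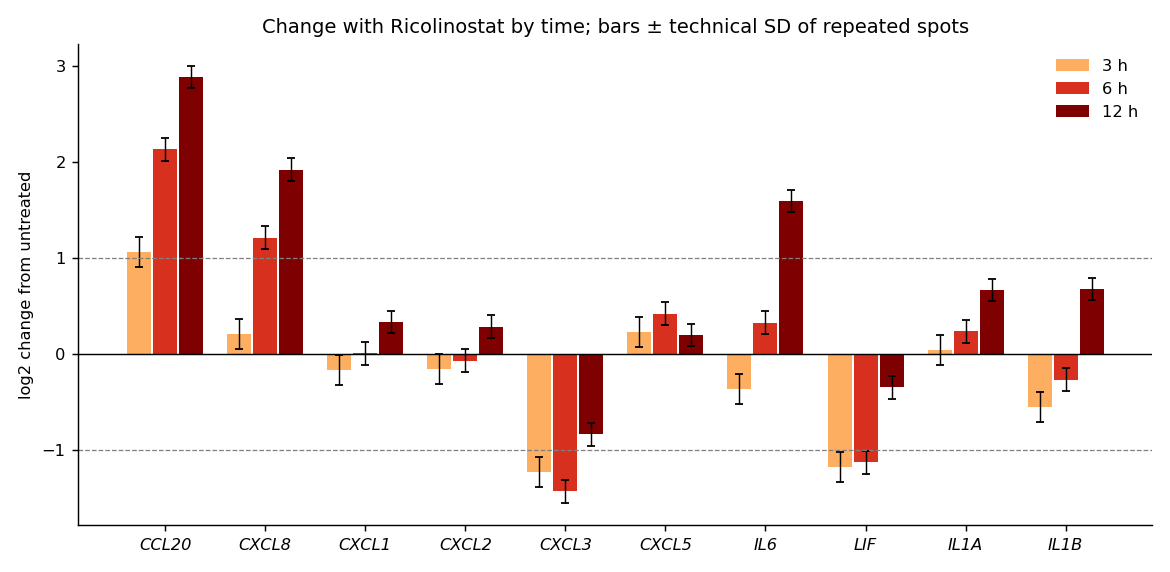
Log2 change from untreated cells after 3, 6 and 12 h with Ricolinostat for the 10 genes, 1 array per time point. Error bars are the technical SD between repeated spots of a probe (0.157, 0.120 and 0.116), not replicate error. This SD is pooled over other probes and was not measured on these genes. Dashed lines mark 2-fold. CCL20, CXCL8 and IL6 end above the upper line and CXCL3 lies below the lower line at 3 and 6 h.

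Over 11 settings the log2 change of CCL20 at 12 h lay between 2.66 and 2.91, that of CXCL8 between 1.69 and 2.25 and that of IL6 between 1.42 and 1.79, all past 2-fold in 11 of 11. Not every setting could move a value, here and below. The filter on dim probes cannot change a gene well above background, nor can averaging of probes change a gene without a second measured probe. Leaving out damaged areas acted on the members only through the normalization, as none of their probes lay in one. CXCL3 was past 2-fold lower at 3 and 6 h in 11 of 11 settings and at 12 h in 2 of 11. LIF was past 2-fold lower at 3 and 6 h in 10 of 11 settings, and with the mean of both its probes the values were -0.63 and -0.63. For CXCL1, CXCL2 and CXCL5 the change at 12 h took both signs over the settings, so no direction is given for them. CXCL1 and CXCL2 were below 0 only with median centring, at -0.038 and -0.061, where the median of all genes was -0.16. CXCL5 was below 0 with median centring (-0.091) and with Cy5 alone (-0.036). CCL20 at 3 h was past 2-fold in 11 of 11 settings, with a highest value of 1.24 and a lowest value just at the threshold.

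**Figure D4:**
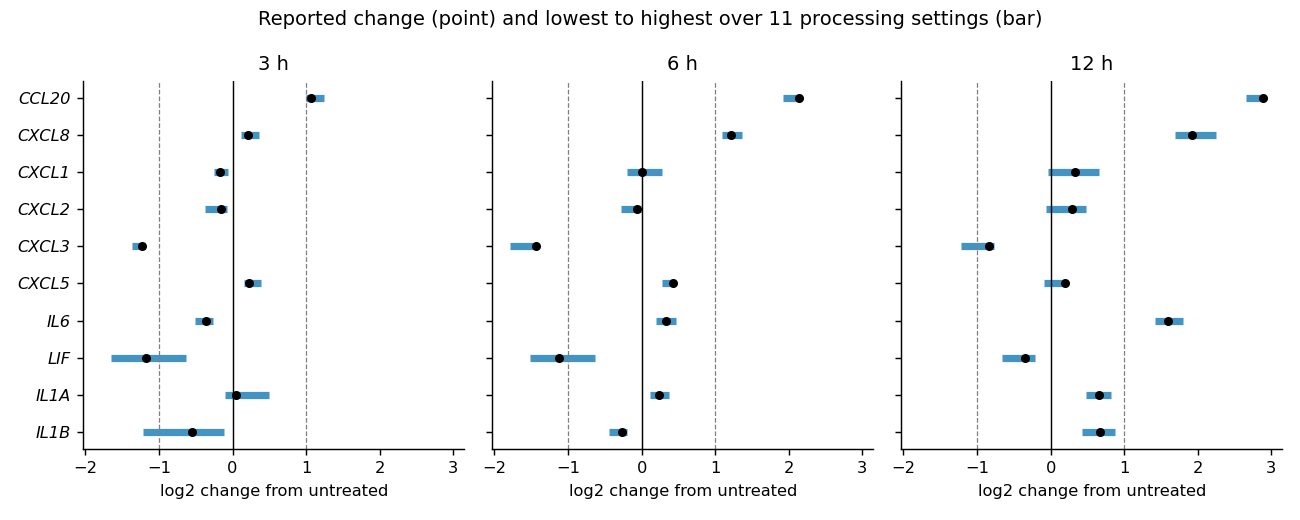
Log2 change of the 10 genes at 3, 6 and 12 h as reported (points) with the lowest to highest value over 11 processing settings (bars, not errors). Dashed lines mark 2-fold; the bars of CCL20, CXCL8 and IL6 at 12 h lie wholly above it, and those of CXCL1, CXCL2 and CXCL5 cross 0.

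Of 12 receptor and antagonist genes, 7 were measured at 12 h and none reached 2-fold in either direction, with a median log2 change of -0.12. Over all genes measured at 12 h, 2.34% were at least 2-fold higher and 1.12% at least 2-fold lower. The lists are short and were chosen with earlier results known. Nothing is therefore read from the counts past 2-fold in this list or the lists below. The co-receptor IL1RAP, needed for IL-1 signalling, had 0.98 at 3 h, 1.13 at 6 h and 0.56 at 12 h, but a second probe gave 0.38 at 6 h, and IL1RAP was past 2-fold at 6 h in 10 of 11 settings. CCR6, the receptor of CCL20, was measured, with Cy5 signals of 392, 663, 532.5 and 339 and log2 changes of 0.22, 0.21 and -0.30. CXCR2 was not well above background in Cy5 on any array.

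Other chemokines did not pass 2-fold in either direction at any time: 10 of 20 on the array were measured at 3 h, 11 at 6 h and 10 at 12 h. Over all genes measured the shares at 3, 6 and 12 h were 1.69%, 2.81% and 2.34% higher and 0.366%, 0.939% and 1.12% lower. The greatest rise at 12 h was that of CCL5, at 0.59.

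Among 23 other cytokines, 18 were measured at 12 h, of which 3 were at least 2-fold higher (TNF, CSF1 and IL11) and 1 lower (CLCF1). Over all genes measured at 12 h the shares were 2.34% higher and 1.12% lower. TNF, a main inducer of several of these chemokines, had Cy5 signals of 410 in untreated cells, 1292 at 6 h and 939 at 12 h and log2 changes of 1.61 and 1.16. Its Cy3 signals on these arrays were 37.5, 38 and 43.5, so that its ratio rests on a dim reference. At 3 h TNF was not measured, because its Cy3 signal of 24 was not well above background, and that spot also lay in a damaged area. IL11, another gp130 cytokine, had -0.06, 0.90 and 1.02. CLCF1, also of that family, was lower at all 3 times, at -1.52, -1.62 and -1.27, like LIF at 3 and 6 h. CSF1, the macrophage growth factor, had 1.26, 1.27 and 1.30 on the probe that represents it, but a second probe gave -0.07, -0.20 and -0.20. IL24 had -0.90 at 3 h, -1.05 at 6 h and 0.18 at 12 h, and was past 2-fold lower at 3 h in 3 of 11 settings and at 6 h in 11 of 11. At 12 h CLCF1 was past 2-fold in 11 of 11 settings, IL11 in 10, TNF in 9 and CSF1 in 9, with lowest values of 0.87 for IL11, 0.84 for TNF and 0.55 for CSF1.

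The genes for maturation and release of IL-1 (10 genes, 8 measured at 12 h) had a median of -0.23 at 12 h with none past 2-fold. The lowest was CASP4, at -0.54.

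Of 12 NF-κB genes, 11 were measured at 12 h, with a median of 0.16. NFKBIZ, which encodes a nuclear co-regulator of NF-κB target genes, had 0.85, 1.13 and 0.74 and was the gene of that list past 2-fold, at 6 h, in 10 of 11 settings. TNFAIP3, an NF-κB feedback gene, could not be measured against the untreated array, where its spot was not well above background and lay in a damaged area, and a bound from that spot is not given.

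Of 9 AP-1 and C/EBP genes, all were measured at 12 h, with a median of 0.24. JUN had 1.08, 1.04 and 0.98, FOS 0.81, 1.09 and 0.43, and ATF3 0.69, 1.46 and 1.66, though the 3 other ATF3 probes gave -0.06, -0.05 and 0.78 at 12 h. JUN was past 2-fold at 3 h in 10 of 11 settings and at 6 h in 9, FOS at 6 h in 8, and ATF3 at 6 and 12 h in 10. FOSL1, another AP-1 subunit, was the lowest of the list at each time, at -0.80, -0.99 and -0.64, and EGR1 had 0.36, 0.34 and -0.60. The 9 genes for proteins that bind AU-rich mRNA elements had a median of 0.06 at 12 h and none past 2-fold, the greatest change being 0.62 for ELAVL1. The median over all genes at 12 h was 0.014.

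**Figure D5:**
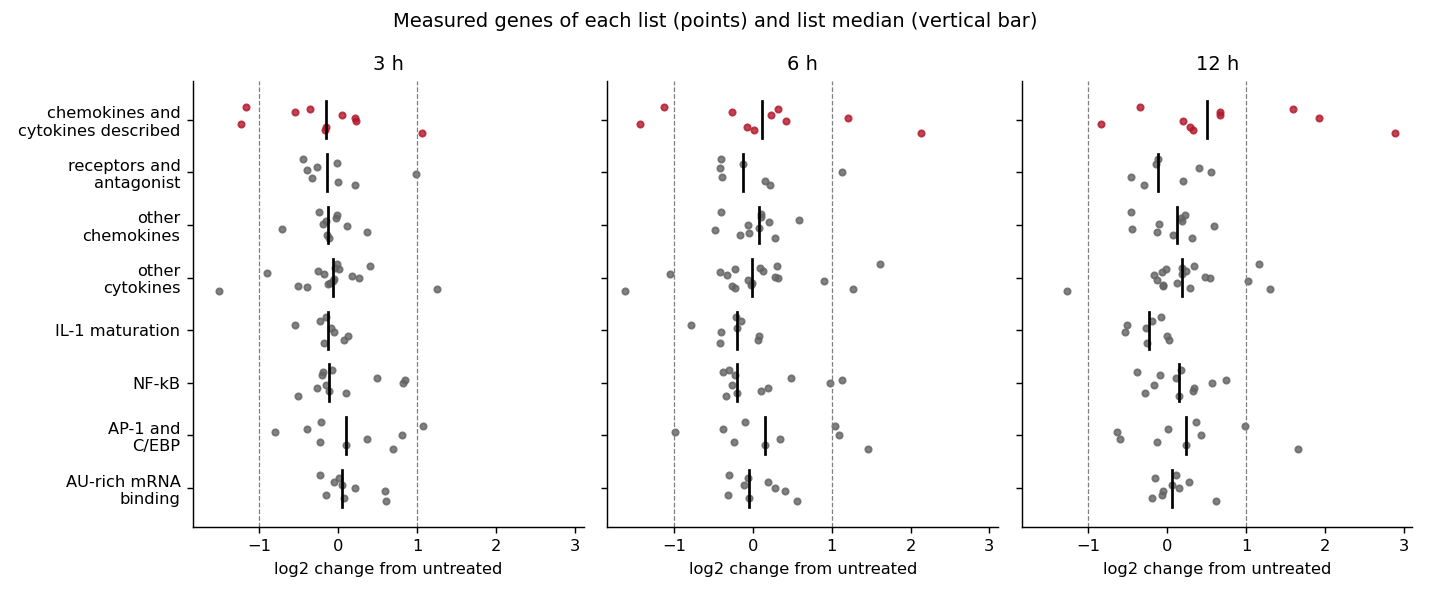
Log2 change from untreated cells at 3, 6 and 12 h of each measured gene (points) in the group of chemokines and cytokines described (red) and in 7 other lists (grey), with list medians (vertical bars). Dashed lines mark 2-fold; at 12 h CCL20, CXCL8 and IL6 lie above the upper line, and of the other lists only cytokine and AP-1 genes do.

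The genes with the pattern closest to that of CCL20, by the Euclidean distance over the log2 changes at 3, 6 and 12 h among 18569 genes, were TPPP, MPP1, BAI2, GRHL3 and VPS37D, at distances of 0.56 to 0.87. Their log2 change at 12 h was between 2.07 and 2.35, below that of CCL20. For CXCL8 the closest were REEP2, DLX4, KIF5C, OBSL1 and PRKAR2B, at distances of 0.21 to 0.45. For IL6 they were HERPUD1, SNAR-D, SAA2, SERPINB2 and SNAR-A3, at distances of 0.31 to 0.60. None of these genes is a chemokine or a member. The epithelial markers had median log2 changes of 0.06, -0.09 and 0.14 over 7 measured genes, the highest being CDH1 at 0.69, 1.03 and 1.32 and the lowest at 12 h EGFR at -0.43.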

How the data were processed

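Total RNA from untreated SUM149 cells and from cells given 2.5 uM of Ricolinostat for 3, 6 or 12 h was hybridised to 4 two-colour arrays. The deposited scanner files hold the intensity of each of 62976 spots (2075 of them controls) and of its local background, as extracted by the authors with Agilent Feature Extraction 12.0.1.1, with that software's log10 ratio of Cy5 over Cy3 and flags for outlier and dim spots. A further deposited table gives the authors' normalized log2 ratios and gene symbols. Its normalization is not given in the sources used here.

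Background correction of the median signals used normexp (offset 50). Controls and flagged outliers were dropped, and arrays were normalized by loess and Aquantile (limma 3.58.1, R 4.3.3; summaries in Python 3.11.15 with pandas 2.3.3). The offset understates changes of dim probes. Repeated spots were averaged per probe, and each gene was represented by its probe of highest mean Cy3. A gene counted as measured at a time point when Cy5 and Cy3 of this probe were well above background there and on the untreated array, and 2-fold was used for counts. The technical SD came from 300 probes with 9 or more spots. Damaged areas were windows (13 rows by 7 columns) in which 10% of spots or more were flagged or over 2-fold from the 4-array Cy3 median. The normalization was tested on simulated data, where bright planted changes were recovered and many dim ones were shrunk below 2-fold. The criterion for passing was limited to bright spots after a first criterion over all spots had failed.

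The members and lists were chosen with earlier results of these data known. All members were named, and in each list the genes past 2-fold or with the greatest change at 12 h, and the 5 genes nearest in pattern to CCL20, CXCL8 and IL6. CCR6, CXCR2, TNFAIP3, FOSL1, EGR1, EGFR, the fibroblast markers named and the neighbours on chromosome 4 were chosen after their values were seen. Alternatives covered background correction, normalization, Cy5 alone, the authors' table, the software's own ratio, the probes of a gene, the filter on dim probes, damaged areas and the threshold. Upstream sequences and gene order are from RefSeq, GRCh38.p14; the arrays were designed on hg19.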

Additional observations from a re-analysis of the deposited data

Results flagged for a closer look

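After background correction and quantile normalization of Cy3 alone, the signal of the IL6 probe on the untreated array was 9.02 on the log2 scale, below the 9.11 of each of the other 3 arrays. The Cy3 signals as scanned were 489.5 on the untreated array and 493, 515 and 543 at 3, 6 and 12 h, where the untreated array did not stand apart. Such a gap is met by chance in about 1 in 20 groups.

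For IL6 the log2 change at 12 h exceeded that at 3 h by 1.96, with the gene below the untreated level at 3 h and above it at 12 h. For IL1B this difference was 1.23, with the same change of sign. Each rests on 1 array per time point, the 2 changes share the untreated array, and the difference was not tested.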

How the results depend on the processing

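No paired analysis was possible because there is only 1 array in each group. No member changed past 2-fold reversed its direction under the 10 alternatives. At the 4-fold threshold the number of members higher was 0 at 3 h, 1 at 6 h and 1 at 12 h, and the number lower 0 at 3 h and 0 at 6 h. At 1.5-fold, 5 were higher and 1 lower at 12 h. The share of all genes was not counted at these thresholds, so nothing is read from these counts of members. With the mean over all probes of a gene, 1 member was lower at 3 h and 1 at 6 h, against 63 of 21153 and 163 of 20723 genes. The median change of the members was then 0.26 at 6 h and 0.65 at 12 h. With median centring, which moved the median of all genes at 12 h to -0.16, the median of the members was -0.044 at 6 h and 0.20 at 12 h and 1 was lower at 12 h. With Cy5 alone the median of the members was 0.68 at 12 h, with 1 lower, against 370 of 20479 genes. The cause of these differences was not tested, other than the thresholds' own construction. Over all genes, median centring gave 263 genes higher and 704 lower at 12 h, against 479 and 229, and a normexp offset of 1 gave 918 and 518. Leaving out damaged areas changed 0 of the counts of members, none of whose probes lay in such an area, and 221 genes were then higher at 3 h against 351. With 1 array per time point, no spread between cultures is known, and dim probes and dim reference signals, as for IL1A, limit the precision.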
